A study of Mus musculus with 18 samples.

Results

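KRAB zinc finger proteins (KZFPs) form a large family of DNA-binding repressors whose genes lie mostly in tandem clusters. The elements described here are the stretches of mm9 that code for the zinc finger arrays of KZFP genes and KZFP-like pseudogenes, as listed by the study, and the members are those of chromosome 13 that stood in a group of at least 8 elements with gaps below 500 kb. The rule gave 101 members of 560 elements, in 3 groups: 25 in cluster 5 (chr13:61737373-62876359), 68 in cluster 6 (chr13:65350952-67927187), and 8 in a group that starts with Zfp72 (chr13:74509241-74745182; the Zfp72 group). Cluster 6 was divided at its widest gap, 187482 bp between neighbouring members against 79112 bp for the next widest, into a proximal part with 41 members (chr13:65350952-66953808) and a distal part with 27 (chr13:67141290-67927187). Peaks between the parts were counted with the nearer one, so that for peaks the proximal part ran on to 67047549, the middle of the gap. The rule used position only. A group of 7 elements at chr13:21460739-22052027 (Zscan12, Zkscan3, Zfp187, Zkscan4, Zfp389, Zfp192 and Zfp184) fell just short of it, and none of its elements lay under a peak of any list.

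The peak lists came from 6 chromatin immunoprecipitation sequencing libraries, 1 for each condition. KAP1 and SETDB1 were measured in Hepa 1.6 cells, a line from a mouse hepatoma, labelled WT. The histone marks H3K9me3 and H3K27ac were measured in mouse embryonic fibroblasts (MEFs) of C57BL/6 background, from WT Kap1 loxP/loxP cells and from Kap1 KO cells. Per the study's methods for RNA, the Kap1 KO MEFs were a clone that grew stably and was kept for many passages, with its non-excised counterpart as WT, so genotype and clone cannot be told apart. In the 6 lists used here, KAP1 binding and the histone marks were thus not read in the same cells. The study also measured KAP1 in MEFs, which these lists do not hold. The lists held 13366 KAP1, 2957 SETDB1, 14425 WT and 4319 Kap1 KO H3K9me3, and 36275 WT and 36436 Kap1 KO H3K27ac peaks. All 2957 entries of the SETDB1 list were identical to KAP1 entries. The list may thus hold only KAP1 peaks shared with SETDB1, and it was not read as SETDB1 binding at large. All 7 fibroblast marker genes, and none of 4 hepatocyte marker genes, had an H3K27ac peak at the start in both MEF genotypes. The loss of Kap1 itself cannot be checked from peak lists. With 1 library for each condition no test between conditions was possible, and every interval below (exact binomial or Poisson, or Newcombe for a difference of shares, at 95%) covers counting error only.

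As background, a KZFP binds DNA through an array of zinc fingers and recruits the corepressor KAP1 (TRIM28) through its KRAB domain. KAP1 brings the histone methyltransferase SETDB1, which deposits H3K9me3, a mark of silent chromatin. H3K27ac marks active promoters and enhancers. KAP1 is also known to bind the 3′ part of KZFP genes themselves, where the finger array is encoded. Neighbouring fingers are joined by a conserved linker, so the coding sequence of an array repeats a short word. The linker word GGAGANAAA was searched on both strands. It gave an orientation to 100 of the 101 members (all but the 118-bp element in Zfp369), and this matched the strand of the host gene in all 44 cases with one. At least 1 match stood in 9.82% of 116081 windows of 1 kb on chromosome 13 outside the elements, and 2 or more in 0.606%.

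Stretches of 5 arrays are shown first, 5′ to 3′ on the coding strand, as examples of members with and without KAP1: the members with the highest KAP1 score of the proximal part, of cluster 5 and of the Zfp72 group, the single distal member under a KAP1 peak (Zfp712), and the longest distal member under none (Zfp738). Capitals mark the linker word, and each stretch spans 2 linkers.
Gm16512, chr13:66222345-66222512, plus strand: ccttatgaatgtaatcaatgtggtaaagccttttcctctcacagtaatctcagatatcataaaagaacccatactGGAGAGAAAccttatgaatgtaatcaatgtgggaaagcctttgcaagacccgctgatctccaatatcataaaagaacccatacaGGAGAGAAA
Zfp712, chr13:67142240-67142407, minus strand: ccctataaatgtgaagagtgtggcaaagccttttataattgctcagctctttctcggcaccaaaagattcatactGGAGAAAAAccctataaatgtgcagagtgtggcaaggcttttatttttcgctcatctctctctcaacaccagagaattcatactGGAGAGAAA
Zfp738, chr13:67772037-67772204, minus strand: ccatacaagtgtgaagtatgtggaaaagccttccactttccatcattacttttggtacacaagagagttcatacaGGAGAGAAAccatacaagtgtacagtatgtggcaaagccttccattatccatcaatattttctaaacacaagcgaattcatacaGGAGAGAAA
Cluster 5 member without a host gene, chr13:62150562-62150729, plus strand: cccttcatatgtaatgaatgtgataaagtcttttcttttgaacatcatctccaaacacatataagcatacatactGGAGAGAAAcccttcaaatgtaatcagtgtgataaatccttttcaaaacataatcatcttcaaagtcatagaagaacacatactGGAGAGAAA
Zfp72 group member without a host gene, chr13:74716739-74716906, minus strand: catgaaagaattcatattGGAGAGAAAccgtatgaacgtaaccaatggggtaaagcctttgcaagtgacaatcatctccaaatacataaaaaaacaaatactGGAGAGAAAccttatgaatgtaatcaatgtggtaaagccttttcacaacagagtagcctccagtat
The stretches were cut to span 2 linkers, so they do not compare the parts. Over whole members, those under a KAP1 peak held 4 to 22 linker words and those under none 0 to 19.

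KAP1 lay over 31 of the 101 members (30.7%, 21.9 to 40.7), against 22.5% of all 560 elements, and the proximal part of cluster 6 held most of them. In the proximal part 22 of 41 members were bound (53.7%, 37.4 to 69.3), and in the distal part 1 of 27 (3.70%, 0.0937 to 19.0), a difference of -49.95 percentage points for distal minus proximal (-64.6 to -29.1). Cluster 5 had 5 of 25 (20.0%, 6.83 to 40.7) and the Zfp72 group 3 of 8. For comparison, 45 of 278 elements in clusters of other chromosomes were bound (16.2%, 12.1 to 21.1), and 50 of 181 elements outside clusters (27.6%). The proximal interval lay above that of the clusters of other chromosomes, and the distal interval overlapped it.

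The highest peaks also stood in the proximal part. A peak score is the caller's measure of how strongly reads exceeded the input, and it is not scaled between libraries. The 22 proximal scores ran from 101 to 2051 with a median of 523, against a median of 149 over the whole KAP1 list. Gm16512 (chr13:66222233-66224213) had 2051, the element shared by Gm10323, Gm17404 and Gm17449 (chr13:66950060-66953808) 1270, and the member at chr13:65904182-65906239, which lies in no annotated exon, 1227. 2410141K09Rik (chr13:66530435-66533160) had 1083 and the member at chr13:66381979-66383434 had 709. All 5 were proximal. The 5 scores of cluster 5 ran only from 104 to 352, the highest at chr13:62150439-62152605, followed by Zfp808 with 302, chr13:62874617-62876359 with 281, Zfp934 with 157 and chr13:61845108-61847182 with 104. The single distal peak, at Zfp712, had 142.

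**Figure D1:**
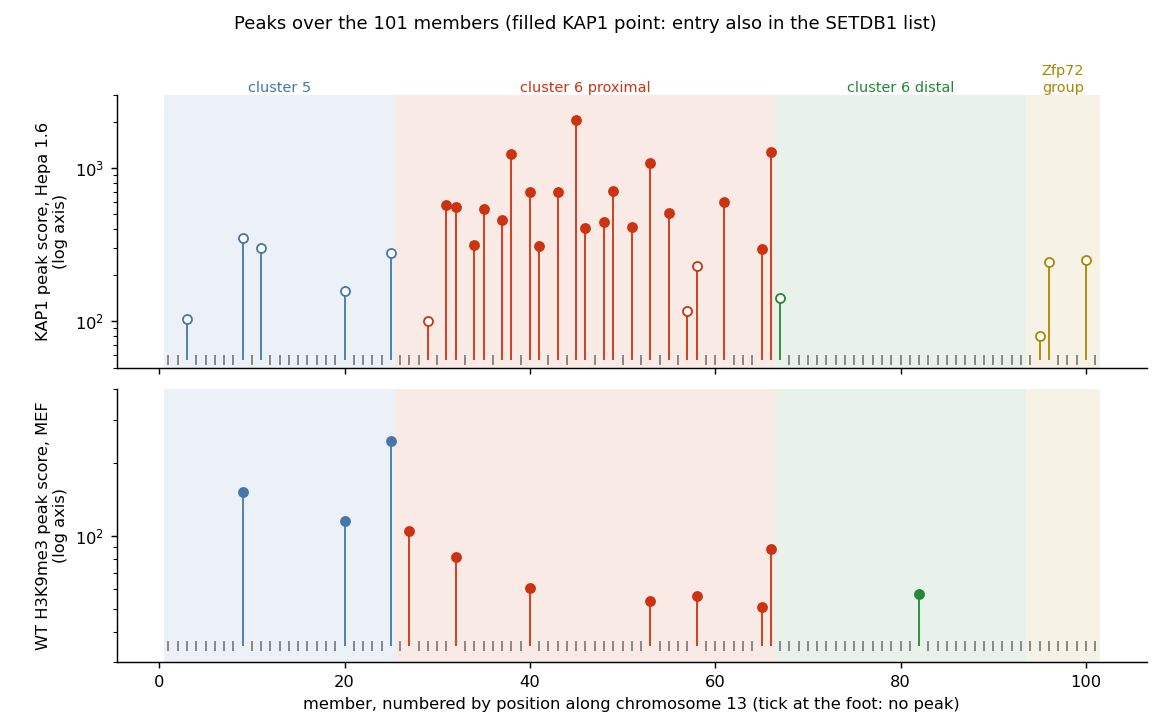
Peak scores over the 101 members in their order along chromosome 13 (x axis, member number), for Hepa 1.6 KAP1 (upper panel) and WT MEF H3K9me3 (lower panel), both on log axes, with 1 point for each member under a peak and a tick at the foot for each member under none. Filled KAP1 points are entries also in the SETDB1 list. The 22 proximal KAP1 points run up to 2051, and the distal part has 1 point in each panel.

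The SETDB1 list, a subset of the KAP1 entries, covered 19 of the 101 members (18.8%, 11.7 to 27.8), against 11.1% of all elements, and all 19 were proximal. Among the bound members, 19 of 22 proximal ones were in it (86.4%, 65.1 to 97.1), but 0 of 5 in cluster 5, 0 of 1 in the distal part and 0 of 3 in the Zfp72 group. In the clusters of other chromosomes 23 of 45 bound elements were in the list (51.1%). The 3 proximal members with KAP1 but outside the SETDB1 list had scores at the lower end: 101 at chr13:65498763-65500312, 117 at chr13:66675392-66677793 and 229 at chr13:66698749-66700964. The distal minus proximal difference was -46.3 points (-61.3 to -27.4). Away from members, the span of cluster 5 held 7 entries of the list.

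The Zfp72 group is small enough to give whole. KAP1 lay at chr13:74715761-74716906 with a score of 252, at chr13:74584777-74586006 with 245, and at chr13:74572061-74572591 with 80, the lowest score in the list. No KAP1 peak lay over Zfp72, Zfp825 or the members at chr13:74646277-74647143, chr13:74691300-74691857 and chr13:74744373-74745182.

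Binding went with the length of the array. The length of 1000 bp that divides the members here was chosen after the data had been seen. In the proximal part 22 of 24 members of at least 1000 bp were bound (91.7%, 73.0 to 98.97) and 0 of 17 shorter ones. Length went with repetition there: a median of 9.07% of the 100-base words of shorter members occurred once in the genome, against 54.0% in long ones. Shorter members of the distal part and of cluster 5 had medians of 100% and 89.3%, and in each 0 of 9 were bound. The part of read assignment in the contrast by length was not tested. The 2 long proximal members without a peak were chr13:65350952-65352497 and chr13:65437648-65440395, both at the proximal end of the cluster. Among long members the 2 parts of cluster 6 still differed: in the distal part 1 of 18 long members was bound (5.56%, 0.141 to 27.3), a difference of -86.1 points (-93.7 to -59.4), and 0 of 9 shorter ones. Long members were bound in 5 of 16 cases in cluster 5 (31.3%, 11.02 to 58.7) and in 2 of 3 in the Zfp72 group. Of long elements, 37 of 184 in clusters of other chromosomes were bound (20.1%, 14.6 to 26.6) and 30 of 59 outside clusters (50.8%, 37.5 to 64.1). Over all long elements the count was 97 of 304 (31.9%). Elements under 1000 bp were bound less often, but not only in the long class was KAP1 found. In the Zfp72 group 1 of 5 such members was bound, at chr13:74572061-74572591. Of such elements 8.51% were bound in clusters of other chromosomes, 16.4% outside clusters and 11.3% over all elements. The median count of linker words, which tracks the number of fingers, was 15 in bound and 4 in unbound proximal members, 6 in distal members, 7 in cluster 5 and 9 in the Zfp72 group.

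**Figure D2:**
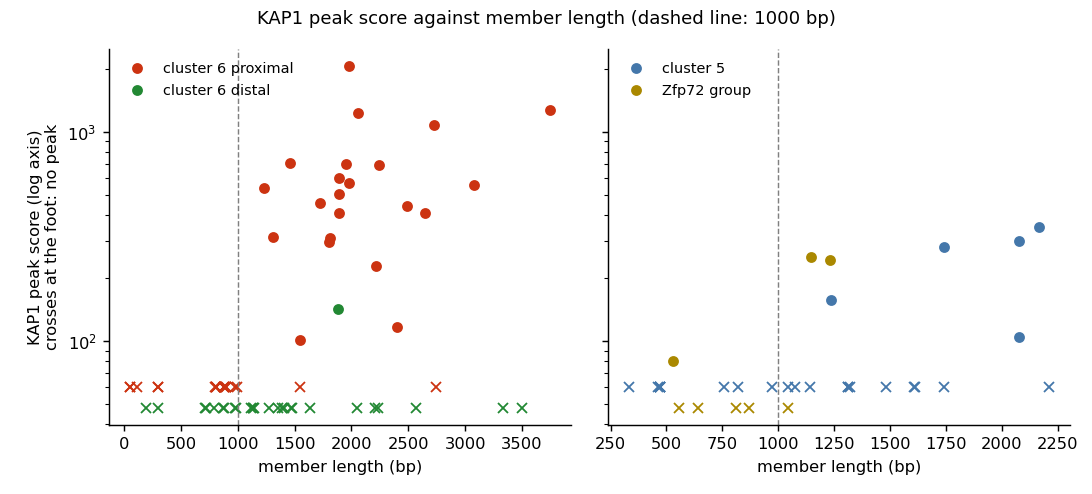
KAP1 peak score (log axis) against member length in bp, for cluster 6 on the left and for cluster 5 and the Zfp72 group on the right; crosses at the foot are members under no KAP1 peak and the dashed line stands at 1000 bp. To the right of the line 22 of 24 proximal and 1 of 18 distal members have a peak.

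Where KAP1 lay over an oriented member, its peak leaned to the 5′ side. The middle of the peak was upstream of the middle of the member in 28 of 31 cases, with a median offset of -245.5 bp (negative is upstream), and in 22 of the 31 the offset was within 500 bp. By part, the middle was upstream in 21 of 22 proximal cases, 4 of 5 in cluster 5, 1 of 1 distal and 2 of 3 in the Zfp72 group. The peak covered a median of 68.5% of the member. No offset is given here for other elements, so the lean is not shown to be particular to the members.

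KAP1 peaks away from the members were not scattered evenly in the proximal part. It held 39 KAP1 peaks (23.0 per Mb, 16.3 to 31.4, against 4.55 per Mb, 1.24 to 11.6, in the distal part). Of the 39, 22 lay over members and 17 elsewhere, and 15 of the 17 were downstream of the nearest member. Of peaks away from members, 3 of 3 in the distal part, 5 of 10 in cluster 5 and 1 of 2 in the Zfp72 group were downstream. Grouped after the data had been seen by shared words of 31 bases (at least 20 shared words), 12 of the 17 fell into 2 sequence families without a peak outside the proximal part. A further 6 peaks, of cluster 5 and the proximal part together, formed a looser family whose commonest word stood in 3 of them and at 3209 places in the genome. Another 4 peaks, of cluster 5 and the distal part, formed a family whose commonest word stood in all 4 and at 129 places. Of these 4, 3 were in the SETDB1 list. The first of the 2 proximal families had 6 peaks, 2774 to 3825 bp downstream of members of 805 to 972 bp that had no KAP1 peak of their own. Its scores were 123 to 272, and 0 of 6 were in the SETDB1 list. The second proximal family had 6 peaks, 10652 to 16862 bp downstream of members of 1306 to 3082 bp, all 6 of which were under KAP1 themselves. Its scores were 378 to 726, and 4 of 6 were in the SETDB1 list. No H3K9me3 or H3K27ac peak of WT MEFs, nor any H3K27ac peak of Kap1 KO MEFs, overlapped a peak of either family, and no KAP1 peak away from a member held the linker word. A stretch of the strongest peak of each proximal family is shown, with capitals for the word of 31 bases that all 6 peaks share.
First family, chr13:66835085-66835195, minus strand: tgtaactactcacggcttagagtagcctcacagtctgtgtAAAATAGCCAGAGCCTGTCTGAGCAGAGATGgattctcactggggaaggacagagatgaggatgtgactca
Second family, chr13:66241020-66241130, minus strand: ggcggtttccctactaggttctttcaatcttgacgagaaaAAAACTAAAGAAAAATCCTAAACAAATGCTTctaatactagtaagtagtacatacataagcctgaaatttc
The first word had 11 copies in the genome and the second 10, all in the proximal part. KAP1 peaks covered 6 copies of each and not the other 5 and 4.

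H3K9me3 in WT MEFs covered fewer members than KAP1. Only 11 of 101 were under a peak (10.9%, 5.56 to 18.7), against 22.1% of all elements. The proximal part had 7 of 41 (17.1%, 7.15 to 32.1), cluster 5 had 3 of 25, the distal part 1 of 27 and the Zfp72 group 0 of 8. The interval of the distal minus proximal difference (-13.4 points, -27.9 to 3.53) included 0, and the difference was -2.81 points with cluster 6 divided at the middle of its length and -5.88 with equal numbers of members in both parts. Elements in the clusters of other chromosomes had the mark in 54 of 278 cases (19.4%) and those outside clusters in 59 of 181 (32.6%).

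The 3 highest H3K9me3 scores were those of cluster 5, although its KAP1 scores were low: chr13:62874617-62876359 with 245, chr13:62150439-62152605 with 152 and Zfp934 with 115. All 3 were also under KAP1. In the proximal part the element in Zfp369 had 105 without a KAP1 peak. The element of Gm10323, Gm17404 and Gm17449 had 87.8, chr13:65646280-65649361 had 81.2, Gm17353 had 60.9, chr13:66698749-66700964 had 56.3, 2410141K09Rik had 53.7 and chr13:66892655-66894460 had 50.7. The 6 last-named members were also under KAP1, which made 9 members with both marks, 3 in cluster 5 and 6 proximal. Over all elements 77 of 560 had both. Most proximal KAP1 peaks of Hepa 1.6 cells, 16 of 22, had no H3K9me3 peak over the member in MEFs. Of KAP1-bound elements, 49 of 126 over all, 13 of 45 in clusters of other chromosomes and 14 of 50 outside clusters had none. The distal member with the mark was Zfp58, with 57.6 and no KAP1.

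Read over the spans of the groups, WT H3K9me3 had 12 peaks in cluster 5, 13 in the proximal part, 1 in the distal part and 2 in the Zfp72 group. The highest of all, 1359 at chr13:74665815-74668563 in the Zfp72 group, lay 18672 bp from the nearest member and overlapped a KAP1 peak of score 980. Over oriented members 9 of 10 peak middles were upstream of the member's middle, with a median offset of -679.5 bp. In Kap1 KO MEFs no H3K9me3 peak lay over a member (0 of 101, upper limit 3.59%, against 0.179% of all elements), and none stood in any of the spans, where WT MEFs had 28. The Kap1 KO list was also the shorter one (4319 against 14425 peaks), and when WT was reduced to the same number of peaks by score, 3 members were left under it.

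No member itself lay under an H3K27ac peak, in WT MEFs (0.357% of all elements) or in Kap1 KO MEFs (0.536%). Around the members the mark differed between the parts. The proximal part held 3 H3K27ac peaks in WT and 23 in Kap1 KO MEFs, of which 2 in each genotype lay in the gap beyond the last proximal member, which left 1 and 21 within the span of the members. Of the 23, 20 shared no base with a WT peak, while 22.8% of all Kap1 KO peaks did so, and 0 of the 3 WT peaks were without a Kap1 KO peak (22.8% of all WT peaks). The distal part held 30 peaks in each genotype, with 4 found only in Kap1 KO and 4 only in WT MEFs. Cluster 5 had 11 and 16, with 6 only in Kap1 KO and 1 only in WT MEFs, and the Zfp72 group 6 and 5, with 0 and 1. Per Mb, peaks found only in Kap1 KO MEFs numbered 11.8 (7.20 to 18.2) in the proximal and 4.55 (1.24 to 11.6) in the distal part, and the interval of the difference (7.24, -1.21 to 14.5) included 0. The difference was 2.36 with only the top 50% of each list by score and 3.11 with cluster 6 divided at the middle of its length.

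The 20 proximal peaks found only in Kap1 KO MEFs, called gained below, were mostly modest in height. Their scores ran from 51.8 to 832 with a median of 227, and 4 of 20 reached the median of the whole Kap1 KO list, 576. The highest were chr13:66725543-66727471 with 832, chr13:66540915-66542864 at the start of 2410141K09Rik with 747, chr13:66091519-66093253 with 703, chr13:65515188-65517091 with 700 and chr13:66798419-66800184 with 431. In cluster 5 the highest peak found only in Kap1 KO MEFs had 1391, the next 636, and the lowest of the 6 had 63.4. In the distal part the 4 such peaks had 396, 93.7, 85.9 and 63.3. The distal peaks found only in WT MEFs had 245, 117, 107 and 59.8, the last at the start of Zfp456.

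Most gained peaks lay upstream of an array. In the proximal part 18 of the 20 lay within 20 kb upstream of a member, by 2013 to 18172 bp, the other 2 at 39272 and 47144 bp, and 3 of the 20 lay within 20 kb downstream of a member. Only 4 of 40 oriented proximal members had such a peak within 20 kb downstream. Counted by member, 20 of 40 proximal members had an H3K27ac peak found only in Kap1 KO MEFs within 20 kb upstream (50%, 33.8 to 66.2), and over all 100 oriented members 26 had (26.0%, 17.7 to 35.7), against 12.6% of the 486 oriented elements of the series. A WT peak stood there for 1 of 40 proximal members (2.50%, 0.0633 to 13.2), the one at chr13:65350952-65352497, and for 40 of all 100 members (51.4% of elements). With Kap1 KO the counts were 21 of 40 (52.5%, 36.1 to 68.5) and 62 of 100 (59.3% of elements). The element in Zfp369, which has no orientation from the linker word, was left out of all these counts. Its host gene, on the plus strand, starts within 20 kb upstream of it. Both genotypes had an H3K27ac peak at that start (3100 in WT and 2505 in Kap1 KO MEFs). The distance of 20 kb was chosen after the data had been seen.

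In the distal part H3K27ac peaks stood upstream of members already in WT MEFs. All 27 distal members had a WT peak within 20 kb upstream, and 28 of 30 WT peaks lay there. In Kap1 KO MEFs 25 of 27 had one, all but Zfp456 and Zfp459, again with 28 of 30 peaks. Cluster 5 stood between, with 6 of 25 members in WT and 10 of 25 in Kap1 KO MEFs, and the Zfp72 group had 6 of 8 in both. KAP1 in Hepa 1.6 cells did not separate the proximal members with a gained upstream peak (12 of 20 bound) from those without (10 of 20).

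Most of the gained proximal peaks shared sequence. The commonest word of 31 bases among the 20 peaks stood in 16 of them, and 238 such words stood in at least 10 (word length chosen after the data had been seen). A stretch of 111 bases around that word, in capitals, is given for the 4 highest-scoring peaks outside annotated exons that hold it, because it shows how alike these peaks are. The lower stretches differ from the first at 4, 3 and 4 bases.
Peak of score 700, chr13:65515892-65516002, minus strand: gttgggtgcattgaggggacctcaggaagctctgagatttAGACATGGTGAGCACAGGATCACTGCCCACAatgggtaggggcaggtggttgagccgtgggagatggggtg
Peak of score 431, chr13:66799030-66799140, minus strand: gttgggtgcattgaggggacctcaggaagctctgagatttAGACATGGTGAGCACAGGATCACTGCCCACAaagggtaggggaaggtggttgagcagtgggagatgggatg
Peak of score 430, chr13:65658464-65658574, minus strand: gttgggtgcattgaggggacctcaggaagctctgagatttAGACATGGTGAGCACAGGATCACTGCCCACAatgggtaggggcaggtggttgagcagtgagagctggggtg
Peak of score 388, chr13:65804546-65804656, minus strand: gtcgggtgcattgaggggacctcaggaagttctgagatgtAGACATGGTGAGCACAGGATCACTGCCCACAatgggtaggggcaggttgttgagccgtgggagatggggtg
The word had 31 copies in mm9, all on chromosome 13 and 30 of them in the proximal part. Of these 30, 28 lay within 20 kb upstream of a member. Another count, not of the same copies, found 28 of the 30 on the strand of the nearest member downstream of them. The median distance over all 30 was 9106 bp. Kap1 KO H3K27ac peaks covered 16 of the 30, and no WT H3K27ac, H3K9me3 or KAP1 peak covered any. For those 16 the absence of WT H3K27ac was fixed in advance, because the word was taken from peaks that share no base with a WT peak. No H3K27ac peak of the distal part, of cluster 5 or of the Zfp72 group held the word. The 4 gained proximal peaks without it included the highest, chr13:66725543-66727471.

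Repetition within the proximal part also bears on what a peak list can show there, because reads that fit several places are hard to assign. Of all words of 100 bases in a proximal member, a median of 42.9% occurred once in the genome (0 to 100 over the 39 members long enough), and 22 of 39 members were below 50%. The medians were 99.2% in the distal part, 95.9% in cluster 5 and 100% in the Zfp72 group. The gained proximal peaks had a median of 50.2%. A median of 44.8% of the 100-base words of a proximal member stood in another member, always of the same part, against 0.438% in the distal part and 4.12% in cluster 5. Of the member with the highest KAP1 score, Gm16512, 9.35% was unique. Exact copies came in 3 pairs of proximal members, identical over their whole length (811, 302 and 54 bp). The shortest pair is shown to make that concrete, with the linker word in capitals.
Pair of 54 bp, chr13:65857387-65857440, minus strand: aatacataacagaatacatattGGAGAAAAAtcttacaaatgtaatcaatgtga
Its twin lies on the plus strand at chr13:66270736-66270789. The part of read assignment in the proximal results was not tested.

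Gene annotation separated the parts as well. In the distal part 26 of 27 members lay in an exon of a protein-coding gene, against 8 of 41 in the proximal part, 5 of 25 in cluster 5 and 2 of 8 in the Zfp72 group. Over all elements 338 of 560 did (60.4%), and in clusters of other chromosomes 165 of 278 (59.4%). The 43 host gene records therefore came mostly from the distal part (26), with 10 proximal, 5 in cluster 5 and 2 in the Zfp72 group. An H3K27ac peak stood within 1 kb of the start of 26 of the 43 in WT MEFs (60.5%, 44.4 to 75.0), against 71.0% of all 341 host genes, and of 26 of 43 in Kap1 KO MEFs, against 73.0%.

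Distal host genes carried the active mark at their starts: 23 of 26 in WT (88.5%, 69.8 to 97.6) and 22 of 26 in Kap1 KO MEFs (84.6%), 22 of them in both. They included Rsl1, a regulator of sex-limited liver genes, with a score of 3100 in WT and 1654 in Kap1 KO MEFs, and Zfp493 with 463 and 494. Others with a start peak in both genotypes included Zfp712, Zfp708, Zfp759, Zfp455, Zfp458, Zfp457, Zfp595, Zfp953, Zfp429, Zfp874a, Zfp874b, Zfp58, Zfp748, AA987161, A530054K11Rik, Zfp738 and Zfp273. Zfp456 had a peak in WT MEFs only (59.8). Zfp459, Zfp87 and 1 of 2 records of Zfp738 had none in either genotype. KAP1 lay at the start of 1 distal gene, AA987161, with a score of 112. The WT score was above the Kap1 KO score in 20 of the 22 distal genes with both (90.9%, medians 2742 and 1009), and in 161 of 237 host genes of the whole series (67.9%), of which 48 were tied. Scores of the 2 lists are not scaled to each other.

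Proximal host genes were few and mostly without H3K27ac at the start. Of 10, Zfp369 had a start peak in both genotypes (3100 in WT and 2505 in Kap1 KO MEFs), and 2410141K09Rik in Kap1 KO MEFs only (747). In cluster 5, Zfp808 (2950 and 965) and Zfp935 (3100 and 1919) were marked in both genotypes. Neither host gene of the Zfp72 group, Zfp72 or Zfp825, had a start peak. Several proximal gene models (Gm10772, Gm17353, Gm16512, Gm17404 and Gm17449) are so short that their start and end fall under the same peaks, and these were the 5 of 10 with KAP1, all in the SETDB1 list, at the start, against 15.0% of all host genes with KAP1 and 2.35% with the SETDB1 list.

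**Figure D3:**
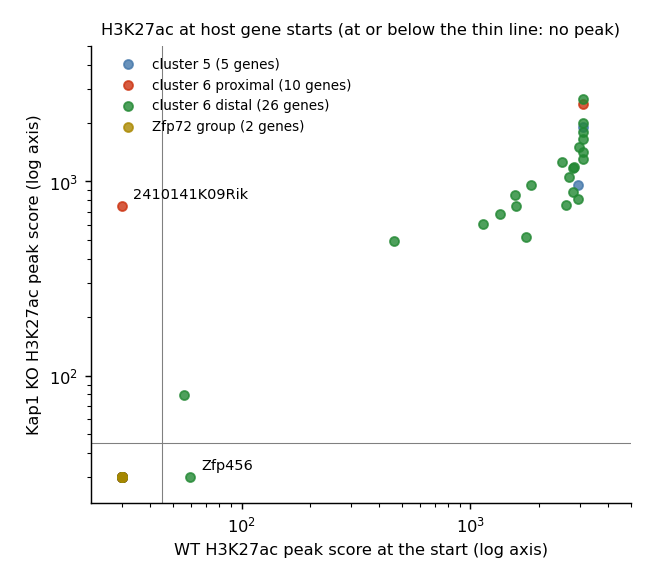
H3K27ac peak score within 1 kb of the start of each of the 43 host gene records, in WT MEFs (x axis) and in Kap1 KO MEFs (y axis), both on log axes; points at or below the thin lines have no peak in that genotype. Most distal genes lie at high scores in both genotypes, 2410141K09Rik has a peak only in Kap1 KO and Zfp456 only in WT MEFs.

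At the 3′ ends of host genes the order was the reverse. WT H3K9me3 lay within 1 kb of 8 of 43 ends (18.6%, 8.39 to 33.4), against 24.6% of all host genes, and these were 6 of 10 proximal genes, Zfp934 in cluster 5 and Zfp58 in the distal part. KAP1 lay at the 3′ end of 9 of 10 proximal, 2 of 5 cluster 5 and 0 of 26 distal genes, against 19.9% of all host genes. The 10 proximal records rest on 8 members. Gm10323, Gm17404 and Gm17449 share 1 element and 1 KAP1 peak, and Gm10323 and Gm17449 share 1 H3K9me3 peak at the end. In the 5 short gene models named above, the end cannot be told apart from the start.

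Expression of the elements in WT MEFs, liver and embryonic stem (ES) cells was taken from the study's table of elements as ranks among the 560 only. Per the study's methods counts were normalised for sequencing depth, and for the ranks they were not divided by element length. Proximal members were at the bottom in both differentiated sources: 36 of 41 were in the lowest 25% of ranks in MEFs and 39 of 41 in liver, and 1 of 41 stood above the median rank in each, the element at chr13:65350952-65352497. In ES cells 19 of 41 stood above the median. Distal members were above the median in 17 of 27 cases in MEFs, 23 in liver and 15 in ES cells. The distal minus proximal difference of these shares was 60.5 points (39.2 to 76.2) in MEFs, 82.7 points (62.4 to 91.9) in liver and 9.21 points (-14.3 to 31.3) in ES cells, where the interval included 0. Cluster 5 had 11, 4 and 7 of 25 above the median, and the Zfp72 group 7, 7 and 5 of 8. Of members under 1000 bp, 0 of 17 proximal and 0 of 9 in cluster 5 stood above the median in each source. In the distal part 3, 7 and 4 of 9 such members did, and in the Zfp72 group 5, 5 and 3 of 5.

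The element that stood above the median in MEFs and liver is the oriented proximal one with a WT H3K27ac peak within 20 kb upstream. At 1546 bp it is also one of the 2 long proximal members without KAP1. In ES cells the 19 proximal members above the median rank were nearly all KAP1-bound in Hepa 1.6 cells (18 of 19), against 4 of 22 below it, and all 6 in the highest 25% were bound. All 19 were at least 1000 bp long, and among the 24 members of that length 18 of 19 above and 4 of 5 below the median were bound, so within long members the contrast was small in number. In the distal part 0 of 15 members above the ES median were bound. The direction seen in the proximal part also held over all elements, with 88 of 280 bound above the ES median and 38 of 280 below it. In clusters of other chromosomes the counts were 38 of 172 and 7 of 106, and outside clusters 28 of 62 and 22 of 119. KAP1 in Hepa 1.6 cells and rank in ES cells come from different cells, and per the study's methods RNA reads that were not unique in the genome had been discarded, which bears most on the proximal members, where 22 of 39 were below 50% unique. The part of these discarded reads, and of element length, in the ranks was not tested.

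**Figure D4:**
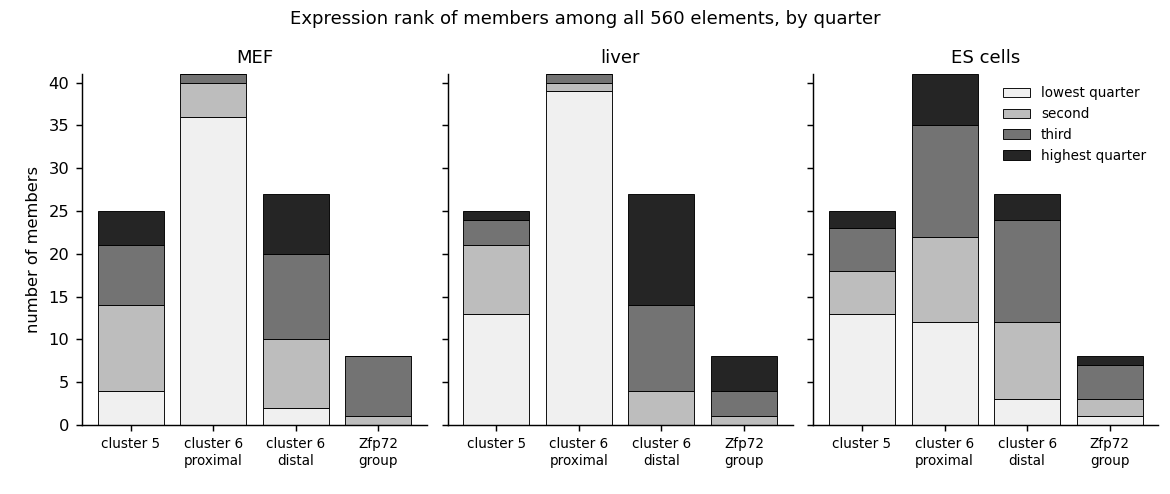
Number of members (y axis) in each band of 25% of the expression ranks of all 560 elements, for each group or part (x axis), in WT MEFs, liver and ES cells from left to right; darker shades are higher ranks. In the proximal part 36 of 41 members in MEFs and 39 of 41 in liver fall in the lowest band, and 12 of 41 in ES cells.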

How the data were processed

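Each condition had 1 library: KAP1 or SETDB1 from Hepa 1.6 cells, or a histone mark from MEFs of either genotype. Per the submitters' processing notes and the study's methods, the authors mapped reads to mm9 with Bowtie2 2.2.1 and called peaks against total input with MACS 1.4, and the deposited peak score is the caller's, not normalised between libraries. The stated cutoff was a score of 80, but the MEF lists began at 50. Depth is not given, and how ChIP reads fitting several places were treated is not given in the sources used here, so absence of a peak may mean signal under the threshold.

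From these lists a peak counted for an element when they shared at least 1 bp, and for a gene start or end within 1 kb. Elements and expression came from the study's table of elements, the latter as ranks, with host genes from GENCODE vM1 and sequence from NCBIM37 (mm9). Members were oriented by the strand with more linker words. Uniqueness was the share of 100-base words found once in the genome. The members, lists and comparisons were chosen with earlier results of these data known. Text names, for each list, the 5 members of highest score, every member under both KAP1 and H3K9me3, host genes with H3K27ac at the start in 1 genotype only, and the highest peaks found in 1 genotype. The counting of overlaps, words and motifs was tested on simulated data. Other peaks and members named with the word, length and family results were chosen after their values were seen. Shares have exact Clopper-Pearson and differences Newcombe intervals at 95%. Intervals were computed with scipy 1.17.1, words with numba 0.67.0 and numpy 2.4.6, tables with pandas 2.3.3 and figures with matplotlib 3.10.9, all under Python 3.11.15. ES cell, liver, input and RNA libraries were not analysed here. Values of 2 host genes are not reported here by name.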

Additional observations from a re-analysis of the deposited data

How the results depend on the processing

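Of 84 alternative settings, 78 planned and 6 chosen after seeing the data, 73 left a count within 1.5 times or a difference within its reported interval, 11 moved it further and 0 reversed a direction. Within these bounds, the proximal minus distal difference in Kap1 KO only peaks per Mb (7.24) fell to 2.36 and 3.11, and the difference in H3K9me3 (-13.4 points) went to -2.81 and -5.88. Another linker word gave a median of 4 per member in place of 7. The 11 members under WT H3K9me3 became 6 with the top 50% of each list by score, 6 with scores of at least 80, and 3 with equal numbers of peaks from both genotypes. With peaks within 1 kb counted, H3K27ac stood at 1 member for WT and at 1 for Kap1 KO. With the top 50% of each list, 6 peaks found only in Kap1 KO and 3 found only in WT MEFs were left of 30 and 6. Counting members in the upper 25% of MEF ranks gave a distal minus proximal difference of 25.9 points. Within 500 bp, 2 host gene 3′ ends had WT H3K9me3. Within 10 kb, 13 members had an upstream H3K27ac peak found only in Kap1 KO MEFs. Of proximal members of at least 800 bp, 61.1% were under KAP1. The causes of these moves were not tested. No paired analysis was possible because each condition has 1 library, so no replicate can be left out either.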
